A study of Rattus norvegicus with 12 samples.

Results

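The hearts of rats in the SU/HX model of pulmonary hypertension were compared with the hearts of normoxic control rats, 4 libraries against 4, across every gene of a deposited RNA-seq table. The members were the libraries that the labels call SU_HX and CTRL, which are 8 of the 12 libraries of the series. The rats were Sprague Dawley males of 130 to 150 g, aged 5 weeks, before the weeks of treatment or normoxia given next. SU_HX rats received SU-5416 at 20 mg/kg under the skin. They also had 3 weeks at 10% oxygen and 2 weeks in normoxia, an order that the labels leave ambiguous, and then 3 weeks of vehicle in normoxia. CTRL rats spent 8 weeks in normoxia, and the labels name no injection for them. SU-5416, hypoxia and vehicle therefore cannot be told apart. The labels name neither the part of the heart nor the animal behind each library. The p-values therefore measure the spread between these libraries.

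SU-5416 blocks the receptors of vascular endothelial growth factor. Together with hypoxia it narrows the small arteries of the rat lung, and the right ventricle then pumps against a raised pressure. A heart under such a load is known to return to genes of the fetal heart, such as the natriuretic peptides and the slow myosin, to burn less fat and to lay down matrix. Messenger RNA is spliced soon after it is made, so reads from introns come mostly from young, unspliced RNA, whereas exon counts come mostly from the finished messages.

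The table had 32623 genes, 18003 of them with a count in these libraries, and 11880 passed a filter on low counts and were tested. Total counts ran from 4036489 to 5797763 in SU_HX libraries and from 4712077 to 5443100 in CTRL libraries. SU_HX library 1 stood apart from the other SU_HX libraries: intron reads were 63.4% of its uniquely placed nuclear reads and 42.6 to 50.0% of those of SU_HX libraries 2 to 4, against 47.3 to 50.0% in CTRL libraries. Mitochondrially encoded genes took 17.0 to 26.2% of the counts in SU_HX libraries, with library 1 highest, and 9.87 to 19.9% in CTRL libraries, with CTRL library 4 lowest. The group difference passed the test for neither share (two-sided exact permutation p = 0.914 for the intron share and 0.429 for the mitochondrial share, where 0.0286 is the smallest p the design allows), and without SU_HX library 1 the intron share was lower in SU_HX than in CTRL (difference -2.62 percentage points, exact permutation p = 0.257). Defining heart muscle markers were abundant in every library: the 10 markers found summed to 24454 to 57803 CPM in SU_HX hearts and 77373 to 83836 CPM in CTRL hearts, with no overlap. Myh6, whose values are given below, made up a large part of the CTRL sums, so the gap is no measure of the markers in general. Of the 10 markers 1 rose, 3 fell and 6 did not pass the test.

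Levels are given in CPM, which are counts scaled to one common library total, and depend on gene length, so they are compared between groups and not between genes. Values of single libraries follow the replicate numbers 1 to 4, and ± is the SD over n = 4 libraries. Changes are log2 fold changes of SU_HX over CTRL with a standard error (SE), and adjusted p is from edgeR's quasi-likelihood test with Benjamini-Hochberg adjustment over every gene tested. In whole tissue, fewer cells of a type and less RNA per cell cannot be told apart.

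SU_HX hearts differed from CTRL hearts in a large part of the genes tested. At an adjusted p under 0.05, 3133 of 11880 genes were called, which is 26.4%. Of these, 1665 rose (14.0%) and 1468 fell (12.4%), and the median change of all genes tested was 0.07. Calls of at least 2-fold numbered 904 rises (7.61%) and 813 falls (6.84%), calls of at least 4-fold 219 and 139, and calls of at least 16-fold 26 and 18. The values of the groups did not overlap in 3914 genes (32.9%). Leaving out 1 library changed the number of calls to between 2040 and 4341; it was 2112 without SU_HX library 3, 2136, 2097 and 2040 without CTRL library 1, 2 or 3, and 4341 without SU_HX library 1.

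The size of the changes can also be given as shares of all counts. CPM depend on gene length, so the shares below are of counts and not of messages. The 1665 genes that rose made up 17.5 ± 3.2% of all CPM in SU_HX hearts and 6.74 ± 0.24% in CTRL hearts. The 1468 that fell made up 7.89 ± 2.64% in SU_HX hearts and 21.7 ± 0.62% in CTRL hearts. The 10 genes with the largest gain, led by Myh7, Xirp2 and Ankrd1, took 5.11 ± 1.80% of CPM in SU_HX hearts and 1.18 ± 0.11% in CTRL hearts. The 10 with the largest loss, led by Myh6 and Atp2a2, took 1.76 ± 0.86% in SU_HX hearts and 7.97 ± 0.36% in CTRL hearts. These genes were picked for their change, so the shares describe its size and are no test.

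**Figure D1:**
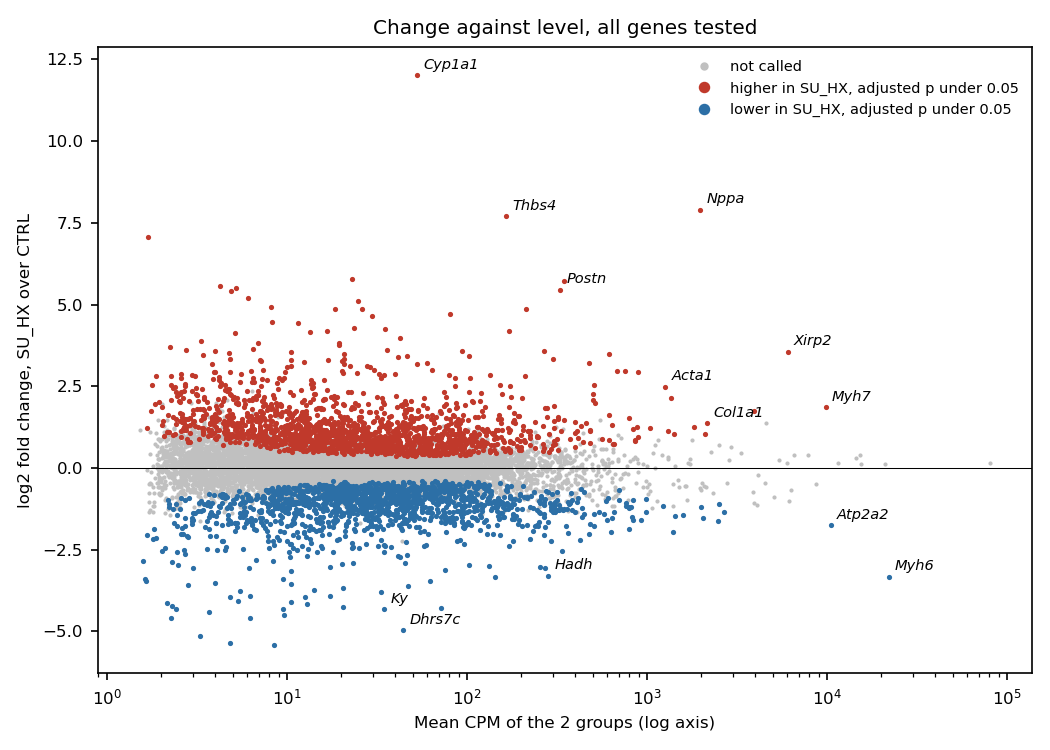
Log2 fold change of SU_HX over CTRL (vertical axis) against the mean CPM of the groups (horizontal log axis) for the 11880 genes tested; red points are the 1665 genes called higher, blue the 1468 called lower, grey the rest. Nppa and Thbs4 lie highest among genes with counts in both groups, and Myh6 and Atp2a2 have the highest mean CPM of the genes that fell.

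The genes with the largest rises included natriuretic, matrix, xenobiotic and fetal contractile genes. A gene was taken for the largest rises or falls only if the values of the groups did not overlap. That the groups lie apart in these genes is therefore a result of the choice. Nppa (ENSRNOG00000008176, 3 exons, at 164808323 to 164809705 of chromosome 5), the gene of atrial natriuretic peptide, had 1249, 5734, 4132 and 4674 CPM in SU_HX hearts, against 6.14, 26.0, 20.9 and 12.8 CPM in CTRL hearts (log2 7.90, SE 0.69, adjusted p = 0.000141). Every SU_HX heart was far above every CTRL heart, and library 1 was the lowest of the SU_HX hearts. Myl4, the essential myosin light chain of atria and of the fetal ventricle, had 4.26, 42.8, 8.60 and 32.5 CPM in SU_HX hearts, against 0.878, 1.32, 0.843 and 0.928 CPM in CTRL hearts (log2 4.44, SE 0.77, adjusted p = 0.00312). Ankrd23, an ankyrin repeat protein that binds titin, had 45.1, 142, 160 and 272 CPM in SU_HX hearts, against 4.61, 9.62, 5.27 and 4.09 CPM in CTRL hearts (log2 4.70, SE 0.54, adjusted p = 0.000474). In all 3 genes SU_HX library 1 was the lowest of its group and still above every CTRL library.

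Matrix genes were 6 of the 15 largest rises. Thbs4 (ENSRNOG00000012471, 25 exons, at 22343727 to 22385855 of chromosome 2), a thrombospondin of the matrix, had 170, 515, 330 and 298 CPM in SU_HX hearts, against 0, 2.26, 2.53 and 1.30 CPM in CTRL hearts (log2 7.71, SE 0.61, adjusted p = 9.32e-05). Postn, periostin of activated fibroblasts, had 230, 654, 1180.4 and 517 CPM in SU_HX hearts, against 10.8, 16.6, 9.27 and 21.9 CPM in CTRL hearts (log2 5.46, SE 0.54, adjusted p = 0.000253). Ltbp2, a microfibril protein of the latent TGF-beta binding protein family, had 251, 661, 1192 and 614 CPM in SU_HX hearts, against 4.83, 18.5, 17.5 and 10.2 CPM in CTRL hearts (log2 5.73, SE 0.59, adjusted p = 0.000288). Both had their highest value in SU_HX library 3 and their lowest in library 1. Tnc, tenascin C, averaged 66.9 ± 38.5 CPM in SU_HX hearts and 3.42 ± 1.58 CPM in CTRL hearts (log2 4.26, adjusted p = 0.000878), and Spp1, osteopontin, 50.8 ± 30.9 CPM in SU_HX hearts and 1.65 ± 1.65 CPM in CTRL hearts (log2 4.86, adjusted p = 0.00164). Wisp2, a matricellular protein also called CCN5, averaged 48.2 ± 46.4 CPM in SU_HX hearts and 1.38 ± 0.670 CPM in CTRL hearts (log2 5.12, adjusted p = 0.00238), and Tmem119, a membrane protein of bone-forming cells and microglia, 35.9 ± 19.5 CPM in SU_HX hearts and 1.20 ± 0.292 CPM in CTRL hearts (log2 4.87, adjusted p = 0.000571).

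Enzymes and receptors completed the list. Cyp1a1 (ENSRNOG00000019500, 7 exons, at 62472095 to 62478147 of chromosome 8), an enzyme induced by the aryl hydrocarbon receptor, had 259, 40.9, 78.4 and 43.3 CPM in SU_HX hearts and 0 counts in all 4 CTRL hearts. It was at least 679-fold higher, taking 3 counts over the CTRL group as the floor (adjusted p = 0.00184; the floor covers counting error only). Cyp1b1, a second enzyme of the same family, had 559, 299, 480 and 303 CPM in SU_HX hearts, against 16.2, 17.0, 12.6 and 10.0 CPM in CTRL hearts (log2 4.87, SE 0.31, adjusted p = 4.07e-05). Here SU_HX library 1 was the highest, as it was for Cyp1a1. Olr1, the receptor for oxidised low-density lipoprotein, averaged 45.1 ± 37.3 CPM in SU_HX hearts and 0.775 ± 0.699 CPM in CTRL hearts (log2 5.78, adjusted p = 0.00111), Alox15, an arachidonate lipoxygenase, 45.3 ± 27.7 CPM in SU_HX hearts and 2.28 ± 1.27 CPM in CTRL hearts (log2 4.29, adjusted p = 0.000892), and Rnd1, a small GTPase of the cytoskeleton, 57.0 ± 31.9 CPM in SU_HX hearts and 2.27 ± 0.700 CPM in CTRL hearts (log2 4.64, adjusted p = 0.000414).

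**Figure D2:**
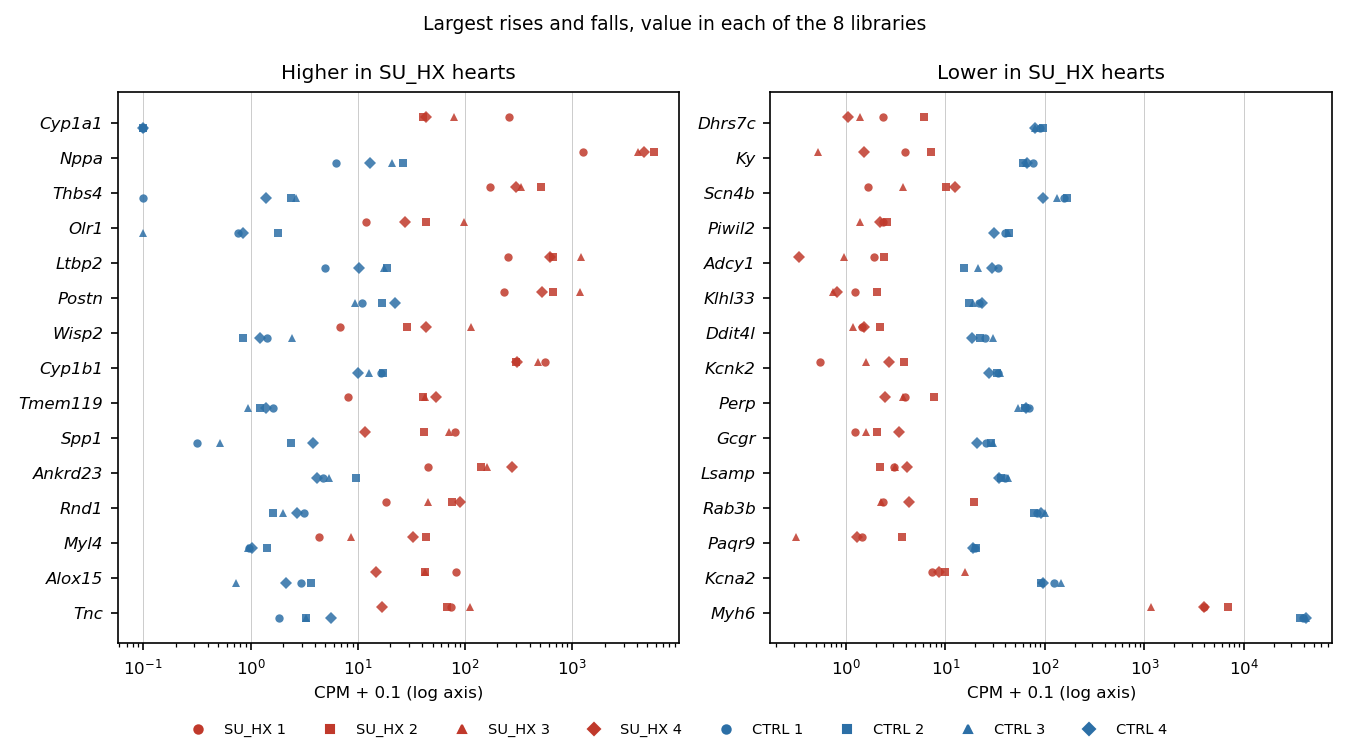
CPM + 0.1 (log axis) of the 15 largest rises (left) and the 15 largest falls (right), 1 point per library, SU_HX in red above CTRL in blue, with a marker shape for each replicate number. In every gene shown the SU_HX points lie on one side of the CTRL points, as the rule of choice required. Cyp1a1 is at 0 counts in all 4 CTRL libraries.

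The promoters of 3 genes that moved far are shown because each holds a TATA sequence near its start. RefSeq (build GRCr8) gives 250 bases before to 50 bases after the start for 10 of the 15 largest rises, too few of them for a comparison of shares, which is void. The letters TATAAA, searched on both strands, occur in 5 of the 10, namely Nppa, Postn, Myl4, Spp1 and Tnc, and in 14.3% of all promoters in that table. They begin 39 and 44 bases before the start in Nppa and Postn and farther out in the other 3. Of the 15 largest falls 13 had an entry and 2 held the letters, Ddit4l at 31 bases before the start and Ky at 216. A match is a description of the letters and not of a working site. Other motifs were also searched and are not reported here. Capitals mark TATAAA.
Nppa, chr5:163711934-163712233, + strand: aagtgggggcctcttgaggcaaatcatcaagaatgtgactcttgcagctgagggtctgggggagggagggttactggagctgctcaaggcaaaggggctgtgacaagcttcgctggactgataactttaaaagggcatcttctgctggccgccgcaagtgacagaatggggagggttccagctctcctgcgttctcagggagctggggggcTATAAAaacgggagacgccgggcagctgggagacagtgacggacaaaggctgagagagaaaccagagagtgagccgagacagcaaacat
Postn, chr2:140677811-140678110, + strand: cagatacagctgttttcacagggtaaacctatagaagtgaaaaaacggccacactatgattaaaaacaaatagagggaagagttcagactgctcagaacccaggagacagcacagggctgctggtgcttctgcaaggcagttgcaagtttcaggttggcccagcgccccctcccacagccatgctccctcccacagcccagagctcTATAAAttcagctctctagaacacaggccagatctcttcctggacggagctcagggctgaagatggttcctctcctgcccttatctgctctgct
Ddit4l, chr2:228801457-228801756, + strand: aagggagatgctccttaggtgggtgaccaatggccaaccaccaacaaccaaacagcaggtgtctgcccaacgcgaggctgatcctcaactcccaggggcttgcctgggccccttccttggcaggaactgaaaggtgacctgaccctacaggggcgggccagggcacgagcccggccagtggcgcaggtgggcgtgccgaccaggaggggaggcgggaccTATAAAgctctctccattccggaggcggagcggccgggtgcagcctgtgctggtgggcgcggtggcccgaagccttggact

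The genes with the largest falls, chosen by the same rule of no overlap, included membrane and signalling genes of adult heart muscle. Dhrs7c (ENSRNOG00000026548, 7 exons, at 54352270 to 54370653 of chromosome 10), a reductase of the sarcoplasmic reticulum, had 2.24, 6.01, 1.29 and 0.942 CPM in SU_HX hearts, against 90.0, 94.9, 79.7 and 79.1 CPM in CTRL hearts (log2 -4.95, SE 0.41, adjusted p = 0.000126). Ky (ENSRNOG00000008210, 11 exons, at 110982777 to 111022385 of chromosome 8), a peptidase of the muscle Z-disc, had 3.81, 7.08, 0.430 and 1.41 CPM in SU_HX hearts, against 75.0, 59.6, 64.9 and 65.7 CPM in CTRL hearts (log2 -4.32, SE 0.49, adjusted p = 0.000465). In both genes every SU_HX heart was far below every CTRL heart, and SU_HX library 2 was the highest of its group. Channel genes fell with them. Scn4b, a beta subunit of sodium channels, averaged 6.95 ± 5.17 CPM in SU_HX hearts and 137 ± 31.1 CPM in CTRL hearts (log2 -4.29, adjusted p = 0.000465). Kcnk2, the stretch-sensitive potassium channel TREK-1, averaged 2.06 ± 1.41 CPM in SU_HX hearts and 32.5 ± 3.51 CPM in CTRL hearts (log2 -3.92, adjusted p = 0.000189), and Kcna2, a voltage-gated potassium channel, 10.3 ± 3.65 CPM in SU_HX hearts and 114 ± 25.7 CPM in CTRL hearts (log2 -3.47, adjusted p = 9e-05).

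Signalling genes in the same list included Adcy1, an adenylyl cyclase, with 1.30 ± 0.925 CPM in SU_HX hearts and 24.8 ± 8.11 CPM in CTRL hearts (log2 -4.17, adjusted p = 0.0003), and Gcgr, the glucagon receptor, with 1.97 ± 0.948 CPM in SU_HX hearts and 26.3 ± 4.14 CPM in CTRL hearts (log2 -3.73, adjusted p = 8.43e-05). Piwil2 (ENSRNOG00000009871, 23 exons, at 52037693 to 52116001 of chromosome 15), a PIWI protein best known from the germ line, had 2.24, 2.48, 1.29 and 2.12 CPM in SU_HX hearts, against 39.9, 43.2, 42.8 and 30.8 CPM in CTRL hearts (log2 -4.24, SE 0.22, adjusted p = 2.02e-05). Its SU_HX values lay close together, and every one was below the lowest CTRL value. Ddit4l, an inhibitor of mTOR signalling, averaged 1.49 ± 0.447 CPM in SU_HX hearts and 23.9 ± 4.88 CPM in CTRL hearts (log2 -3.96, adjusted p = 4.07e-05). Lsamp, a cell adhesion protein first described in neurons, averaged 3.01 ± 0.771 CPM in SU_HX hearts and 38.1 ± 3.51 CPM in CTRL hearts (log2 -3.67, adjusted p = 2.02e-05), Perp, a desmosome protein, 4.36 ± 2.26 CPM in SU_HX hearts and 62.2 ± 6.47 CPM in CTRL hearts (log2 -3.79, adjusted p = 9e-05), and Rab3b, a GTPase of vesicle release, 6.98 ± 8.26 CPM in SU_HX hearts and 87.8 ± 9.72 CPM in CTRL hearts (log2 -3.60, adjusted p = 0.00224). Klhl33 and Paqr9, a kelch protein and a progestin receptor family member, had log2 changes of -4.10 and -3.56. All 15 falls were called under every alternative setting, as were all 15 rises.

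The genes with the largest gains and losses in CPM included contractile and mitochondrial ones. Myh6 (ENSRNOG00000025757, 38 exons, at 33605654 to 33629699 of chromosome 15), the fast alpha-myosin heavy chain of the adult rat ventricle, had 3921, 6888, 1154 and 4004 CPM in SU_HX hearts, against 38839.8, 36943, 42482 and 41731 CPM in CTRL hearts (log2 -3.32, SE 0.52, adjusted p = 0.00188). Myh7 (ENSRNOG00000016983, 38 exons, at 33634422 to 33656089 of chromosome 15), the slow beta form of the fetal ventricle, had 8085, 18019, 14386 and 21239 CPM in SU_HX hearts, against 5253, 4734, 2472 and 4625 CPM in CTRL hearts (log2 1.85, SE 0.40, adjusted p = 0.00802). Per base of exon, Myh7 made up 67.7, 72.7, 92.7 and 84.4% of both myosins in SU_HX hearts, against 12.1, 11.5, 5.59 and 10.1% in CTRL hearts. The groups lay far apart, and SU_HX library 3 had the highest share. The genes are near-identical copies, with 79.5% of the exon reads of Myh6 and 74.6% of those of Myh7 placed uniquely, so how shared reads were divided between them is uncertain.

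Xirp2 (ENSRNOG00000034258, 9 exons, at 53563194 to 53658132 of chromosome 3), an actin-binding protein of the intercalated disc, had 2542, 8648, 12726 and 20701 CPM in SU_HX hearts, against 969, 1035, 1008 and 768 CPM in CTRL hearts (log2 3.56, SE 0.57, adjusted p = 0.00217). Ankrd1, a titin-binding stress protein, averaged 6108 ± 2988 CPM in SU_HX hearts and 1808 ± 334 CPM in CTRL hearts (log2 1.76, adjusted p = 0.0145; call lost without CTRL library 4, adjusted p up to 0.0537). Acta1, skeletal alpha-actin, averaged 2147 ± 1099 CPM in SU_HX hearts and 383 ± 127 CPM in CTRL hearts (log2 2.49, adjusted p = 0.00362), and Fbn1, fibrillin of the microfibrils, 2209.5 ± 1322 CPM in SU_HX hearts and 498 ± 67.1 CPM in CTRL hearts (log2 2.15, adjusted p = 0.00354). Col1a1 and Sparc, a fibrillar collagen and a collagen-binding protein, rose by log2 1.37 and 1.02 (adjusted p = 0.0483 and 0.0481), and both calls lay close to the threshold. They were lost without any 1 CTRL library, without SU_HX library 3 or 4, with relative-log size factors, with no filter, with the replicate block and with limma-voom (adjusted p up to 0.135), and without SU_HX library 3 the change of Col1a1 was 0.78. Col4a1, a basement membrane collagen, rose (log2 1.24, adjusted p = 0.0162; not called in 4 of the alternative settings, among them without CTRL library 1, 2 or 3; highest adjusted p 0.0589). The alpha-globin copy Hba-a2_2 averaged 1588 ± 259 CPM in SU_HX hearts and 206 ± 167 CPM in CTRL hearts (log2 2.94, adjusted p = 0.00318), with 62.0% of its exon reads placed uniquely.

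On the falling side, Atp2a2 (ENSRNOG00000001285, 23 exons, at 39553903 to 39603326 of chromosome 12), the calcium pump of the sarcoplasmic reticulum, had 2021, 8439, 3143 and 5666 CPM in SU_HX hearts, against 15947, 15878, 16978 and 16032 CPM in CTRL hearts (log2 -1.75, SE 0.44, adjusted p = 0.0165; call lost without SU_HX library 3, adjusted p up to 0.0552). Tnni3, cardiac troponin I, averaged 1064 ± 366 CPM in SU_HX hearts and 3039 ± 267 CPM in CTRL hearts (log2 -1.51, adjusted p = 0.00558). Ckm, muscle creatine kinase, averaged 567 ± 346 CPM in SU_HX hearts and 2212 ± 227 CPM in CTRL hearts (log2 -1.96, adjusted p = 0.009). Slc25a4, the carrier that exchanges ADP and ATP, averaged 1229.8 ± 549 CPM in SU_HX hearts and 3749 ± 185 CPM in CTRL hearts (log2 -1.61, adjusted p = 0.009), and Lpl, the lipase that frees fatty acids from blood lipids, 1586 ± 307 CPM in SU_HX hearts and 3423 ± 50.3 CPM in CTRL hearts (log2 -1.11, adjusted p = 0.00952). Atp5a1, Idh2 and Nnt, of ATP synthase, the tricarboxylic acid cycle and NADPH supply, had log2 changes of -1.35, -1.42 and -1.48 (adjusted p = 0.0345, 0.0177 and 0.0262). All 3 calls were lost without SU_HX library 3, and those of Atp5a1 and Nnt also without any 1 CTRL library (adjusted p up to 0.0993).

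Known gene groups were described by counts of members called, with 14.0% of all tested genes called higher and 12.4% called lower as the background. The 55 lists were chosen with results of these data known. A member that passed the filter on low counts only because SU_HX hearts had it high could hardly fail to be called, so the counts describe the tested members and are no test of a list. Members that share a pathway are not independent.

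Contractile and stress genes were mixed in direction. In the cardiac stress list, 14 of 21 tested members rose, 2 fell and 5 did not pass (median log2 change 1.37), and the falls numbered 4 without SU_HX library 1 and 1 without SU_HX library 3 or any 1 CTRL library. Nppb, the gene of B-type natriuretic peptide, averaged 498 ± 251 CPM in SU_HX hearts and 41.8 ± 15.8 CPM in CTRL hearts (log2 3.57, adjusted p = 0.00103), and Ctgf, a matricellular growth factor modulator, rose (log2 3.50, adjusted p = 0.000456). Mef2a, a muscle transcription factor, fell (log2 -0.80, adjusted p = 0.00279), as did Pln, the inhibitor of the calcium pump (log2 -1.27, adjusted p = 0.0331; call lost without SU_HX library 3 or CTRL library 1, 2, 3 or 4, adjusted p up to 0.0935). In the sarcomere list, 2 of 24 tested members rose, 3 fell and 19 did not pass (median log2 change -0.47). The share that fell was near the background of 12.4%, and the share that rose was below that of 14.0%. Pdlim5, a Z-disc protein, rose with Myl4 (log2 0.9996, adjusted p = 0.00892), and Ldb3, another Z-disc protein, fell with Myh6 and Tnni3 (log2 -0.96, adjusted p = 0.0182; call lost without SU_HX library 3 or CTRL library 2, adjusted p up to 0.0578). Rises in the sarcomere list numbered 4 without SU_HX library 1, and its falls 5 without SU_HX library 1 or 2. In the dystrophin complex, which ties the cytoskeleton to the matrix, 4 of 12 tested members fell and 8 did not pass (median log2 change -0.63). Sgcd and Sgca, both sarcoglycans, had log2 changes of -1.03 and -1.10 (adjusted p = 0.00628 and 0.0155), and the falls numbered 2 without SU_HX library 3 and 7 without SU_HX library 2.

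Many genes of the cytoskeleton rose. Among tubulins and microtubule proteins, 8 of 17 tested members rose, 1 fell and 8 did not pass (median log2 change 0.65). Tuba1c averaged 12.7 ± 2.85 CPM in SU_HX hearts and 3.68 ± 1.30 CPM in CTRL hearts (log2 1.80, adjusted p = 0.00184), and Tuba1a and Tubb6 rose (log2 1.09, adjusted p = 0.00241, and log2 1.26, adjusted p = 0.0028). Tuba8, a tubulin of striated muscle and testis, averaged 30.6 ± 21.7 CPM in SU_HX hearts and 145 ± 5.90 CPM in CTRL hearts (log2 -2.23, adjusted p = 0.0042), the fall in this group. Among genes of the actin cytoskeleton, 16 of 30 tested members rose and 14 did not pass (median log2 change 0.73). Zyx, a focal adhesion protein, Nes, the intermediate filament nestin, and Rhoc, a GTPase, rose by log2 1.01, 1.59 and 0.94 (adjusted p = 0.00116, 0.00117 and 0.00188).

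Genes of calcium cycling and conduction mostly fell where they were called. Adrenergic and cyclic nucleotide genes were called in both directions, and the share that rose was near the background of 14.0%. In the calcium and conduction list, 1 of 25 tested members rose, 14 fell and 10 did not pass (median log2 change -0.81). Trdn, triadin of the release complex, and the potassium channels Kcnh2 and Kcnj3 had log2 changes of -1.59, -1.79 and -2.38 (adjusted p = 0.000533, 0.00142 and 0.00197). Cacna1g, a T-type calcium channel prominent in the young heart, rose (log2 2.76, adjusted p = 0.00067). The rises numbered 2 without SU_HX library 1. The falls numbered 7 without SU_HX library 3, 8 without CTRL library 3 and 9 without CTRL library 1, 2 or 4. In the adrenergic and cyclic nucleotide list, 4 of 28 tested members rose, 10 fell and 14 did not pass (median log2 change 0.14). Adra1d, an alpha-1 adrenergic receptor, had 2.24, 0.884, 0.215 and 0.235 CPM in SU_HX hearts, against 15.1, 18.5, 19.0 and 20.1 CPM in CTRL hearts (log2 -4.31, SE 0.44, adjusted p = 0.000282). Pde4a, a phosphodiesterase that breaks down cyclic AMP, had 12.3, 14.9, 9.89 and 10.1 CPM in SU_HX hearts, against 54.6, 54.9, 54.8 and 54.4 CPM in CTRL hearts (log2 -2.20, SE 0.16, adjusted p = 7.01e-05). The CTRL values of Pde4a lay within 1 CPM of each other, and every SU_HX value was far below them. Grk5, a kinase that switches off adrenergic receptors, averaged 72.2 ± 9.26 CPM in SU_HX hearts and 31.7 ± 3.53 CPM in CTRL hearts (log2 1.19, adjusted p = 0.000649), and the phosphodiesterases Pde3b and Pde3a moved apart, with Pde3b higher (log2 1.18, adjusted p = 0.0147) and Pde3a lower (log2 -1.27, adjusted p = 0.00284). The rises numbered 2 without CTRL library 2 or 3 and 8 without SU_HX library 2.

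Lists of regulators held falls in different shares. Among cardiac transcription factors, 6 of 19 tested members fell and 13 did not pass (median log2 change -0.40). Tbx5, Gata6 and Mef2a had log2 changes of -1.56, -0.89 and -0.80 (adjusted p = 0.00638, 0.00819 and 0.00279), and the falls numbered 10 without SU_HX library 2. Among splicing regulators of muscle, 2 of 14 tested members fell and 12 did not pass (median log2 change -0.05), a share near the background of 12.4%. Rbfox1, a splicing factor of muscle and brain, averaged 15.5 ± 9.40 CPM in SU_HX hearts and 136 ± 13.1 CPM in CTRL hearts (log2 -3.12, adjusted p = 0.000533), and Rbm24 fell as well (log2 -1.38, adjusted p = 0.0221; call lost without SU_HX library 3 or CTRL library 4, adjusted p up to 0.0693). The falls of splicing regulators numbered 4 without SU_HX library 2 and 1 without SU_HX library 3 or CTRL library 4. Among regulators of fuel genes, 1 of 22 tested members rose, 12 fell and 9 did not pass (median log2 change -0.84). Klf15, a metabolic transcription factor, had 22.2, 25.8, 21.9 and 27.3 CPM in SU_HX hearts, against 70.9, 81.0, 86.6 and 99.3 CPM in CTRL hearts (log2 -1.80, SE 0.15, adjusted p = 0.000133). Every SU_HX value of Klf15 was below every CTRL value. Rxrg, a retinoid X receptor, and Ppargc1a, the coactivator PGC-1 alpha, had log2 changes of -2.67 and -1.60 (adjusted p = 0.00176 and 0.00204). The thyroid hormone receptors Thra and Thrb followed at -0.92 and -1.64 (adjusted p = 0.00242 and 0.00529), and Pprc1, a related coactivator, rose (log2 0.53, adjusted p = 0.0155; not called in 3 of the alternative settings, among them without CTRL library 2 or 4; highest adjusted p 0.0701).

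Genes of fuel oxidation fell in large part. The mean of the heart muscle markers was also below CTRL in all 4 SU_HX libraries (-1.59, -0.31, -1.17 and -0.36 log2), and its part in these falls was not tested. In fatty acid uptake and oxidation, 23 of 28 tested members fell and 5 did not pass (median log2 change -1.31). Hadh (ENSRNOG00000010697, 8 exons, at 236353445 to 236395067 of chromosome 2), a dehydrogenase of beta-oxidation, had 32.1, 84.7, 39.1 and 54.2 CPM in SU_HX hearts, against 535, 531, 533 and 459 CPM in CTRL hearts (log2 -3.29, SE 0.31, adjusted p = 0.000197). The highest SU_HX heart, library 2, was far below the lowest CTRL heart. Acaa2 and Eci1, a thiolase and an isomerase of the same pathway, had log2 changes of -2.22 and -1.81 (adjusted p = 0.000444 and 0.000244). Cpt1b, the muscle carnitine palmitoyltransferase, averaged 331 ± 130 CPM in SU_HX hearts and 593 ± 55.7 CPM in CTRL hearts and did not pass the test (log2 -0.84, adjusted p = 0.0572). In the tricarboxylic acid cycle, 11 of 18 tested members fell and 7 did not pass (median log2 change -1.08), and the falls numbered 0 without SU_HX library 3, 3 without CTRL library 2 or 3, 4 without CTRL library 1 or 4 and 17 without SU_HX library 2. In complex I, 16 of 34 tested members fell and 18 did not pass (median log2 change -0.92), and the falls numbered 1 without SU_HX library 3, 3 without CTRL library 3, 4 without CTRL library 1 or 2, 5 without CTRL library 4, 9 without SU_HX library 4 and 31 without SU_HX library 2. In the nuclear subunits of complexes III, IV and V, 17 of 33 tested members fell and 16 did not pass (median log2 change -0.99), and the falls numbered 2 without SU_HX library 3, 3 without CTRL library 3, 4 without CTRL library 1, 2 or 4 and 30 without SU_HX library 2. Cox8b, a subunit of cytochrome oxidase in muscle, and Atp5c1, a subunit of ATP synthase, had log2 changes of -1.73 and -1.50 (adjusted p = 0.00905 and 0.0106). The 12 mitochondrially encoded genes gave 0 calls by edgeR, DESeq2 or limma-voom and 0 with an unadjusted p under 0.05 (median log2 change 0.29).

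Other lists of mitochondrial and energy genes held falls and no rise. Among mitochondrial ribosomal proteins, 28 of 68 tested members fell and 40 did not pass (median log2 change -0.69). Mrpl2, Mrps10 and Mrps28 had log2 changes of -1.23, -1.30 and -1.04 (adjusted p = 0.00257, 0.00359 and 0.00446), and the falls numbered 12 without SU_HX library 3 or CTRL library 3, 15 without CTRL library 1, 2 or 4 and 49 without SU_HX library 2. In mitochondrial dynamics and mitophagy, 7 of 15 tested members fell and 8 did not pass (median log2 change -0.74). Fundc1 and Pink1, a receptor and a kinase that mark mitochondria for removal, had log2 changes of -0.90 and -1.97 (adjusted p = 0.0033 and 0.00798), and the falls numbered 3 without SU_HX library 3 and 4 without CTRL library 2 or 4. In the creatine and adenylate shuttle, 7 of 16 tested members fell and 9 did not pass (median log2 change -1.01). Gamt, an enzyme of creatine synthesis, and Ckmt2, the mitochondrial creatine kinase, had log2 changes of -1.55 and -1.36 (adjusted p = 0.00265 and 0.00359), and the falls numbered 12 without SU_HX library 2.

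Genes of sugar metabolism were called in both directions, and most glycolysis genes did not pass the test. In glycolysis and pyruvate entry, 3 of 32 tested members rose, 7 fell and 22 did not pass (median log2 change -0.54), and the share that rose was below the background of 14.0%. The muscle forms of enolase and phosphofructokinase, Eno3 and Pfkm, had log2 changes of -3.06 and -2.02 (adjusted p = 0.000571 and 0.00266). The platelet form of phosphofructokinase, Pfkp, averaged 93.9 ± 34.3 CPM in SU_HX hearts and 21.2 ± 3.99 CPM in CTRL hearts (log2 2.14, adjusted p = 0.00088), and the liver form Pfkl and the lactate carrier Slc16a3 rose by log2 0.70 and 1.85 (adjusted p = 0.0117 and 0.00483). The rises numbered 6 without SU_HX library 1 and the falls 14 without SU_HX library 2. In pentose phosphate, polyol and hexosamine metabolism, 5 of 16 tested members rose, 4 fell and 7 did not pass (median log2 change 0.22). Uap1 and Gfpt2, of the hexosamine branch that feeds glycan synthesis, rose by log2 1.99 and 1.67 (adjusted p = 0.000169 and 0.000482). Ugdh, which makes a precursor of hyaluronan, rose by log2 1.38 (adjusted p = 0.00425). The falls, Rpia, Sord, Akr1b1 and Ugp2, numbered 0 without SU_HX library 3 or CTRL library 1 and 1 without CTRL library 2 or 3. In serine, one-carbon, proline and purine synthesis, 6 of 21 tested members rose, 1 fell and 14 did not pass (median log2 change 0.31). The amino acid carriers Slc1a5 and Slc7a1 rose by log2 1.27 and 1.11 (adjusted p = 0.00135 and 0.00354), and the rises numbered 3 without CTRL library 1 or 3. The fall numbered 2 without SU_HX library 1, 3 without SU_HX library 2 and 0 without SU_HX library 3 or any 1 CTRL library.

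Many genes of matrix structure, processing and adhesion rose. In fibrillar collagen and matrix, 29 of 39 tested members rose and 10 did not pass (median log2 change 1.5005). Cilp, a cartilage matrix protein, averaged 188 ± 27.1 CPM in SU_HX hearts and 17.7 ± 5.60 CPM in CTRL hearts (log2 3.41, adjusted p = 7.01e-05), and Col12a1, a collagen of the fibril surface, 114 ± 48.0 CPM in SU_HX hearts and 14.3 ± 1.99 CPM in CTRL hearts (log2 2.99, adjusted p = 0.000214). In collagen processing and cross-linking, 14 of 25 tested members rose and 11 did not pass (median log2 change 0.89). The hydroxylases P4ha1 and Plod2 and the oxidase Loxl2 rose by log2 1.61, 2.84 and 1.96 (adjusted p = 0.000497, 0.000818 and 0.000899). In integrins and adhesion, 8 of 21 tested members rose, 1 fell and 12 did not pass (median log2 change 0.47). Itgbl1, a secreted integrin-like protein, and Itgb1, the common beta chain, rose by log2 2.06 and 1.27 (adjusted p = 0.00624 and 0.00643), and Itga7, the laminin receptor of muscle, fell (log2 -0.76, adjusted p = 0.021; not called in 4 of the alternative settings, among them without SU_HX library 3 or CTRL library 2 or 4; highest adjusted p 0.0596). The integrin rises numbered 3 without CTRL library 3, 4 without CTRL library 1, 2 or 4 and 5 without SU_HX library 3.

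Growth factors of the activin branch rose among the signalling genes. In TGF-beta, activin and BMP signalling, 16 of 30 tested members rose, 2 fell and 12 did not pass (median log2 change 0.79). Inhbb, a subunit of activin B, had 26.2, 29.2, 31.6 and 40.3 CPM in SU_HX hearts, against 2.85, 1.13, 1.69 and 1.30 CPM in CTRL hearts (log2 4.19, SE 0.27, adjusted p = 4.2e-05). Every SU_HX value of Inhbb was above every CTRL value. Inhba, the subunit of activin A, averaged 20.2 ± 5.92 CPM in SU_HX hearts and 3.83 ± 0.511 CPM in CTRL hearts (log2 2.39, adjusted p = 0.000305). Tgfbr3, a co-receptor, fell (log2 -0.70, adjusted p = 0.00735), as did Smad9, a mediator of BMP signals (log2 -1.05, adjusted p = 0.0367; call lost without SU_HX library 3 or CTRL library 1, 2, 3 or 4, adjusted p up to 0.0985). In Wnt, IGF and FGF signalling, 11 of 27 tested members rose, 2 fell and 14 did not pass (median log2 change 0.65). Fgf23, a phosphate-regulating hormone of bone, had 3.59, 3.01, 3.01 and 4.003 CPM in SU_HX hearts and 0 counts in all 4 CTRL hearts, at least 22.4-fold higher on the floor of 3 counts over the group (adjusted p = 0.000649). Igfbp6, an IGF binding protein, rose (log2 2.29, adjusted p = 0.00272), and the growth factors Fgf16 and Fgf13 had log2 changes of -1.70 and -1.61 (adjusted p = 0.0109 and 0.015).

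The lists of vessel and stress genes differed in the share of members that fell. That share was below the background of 12.4% in the VEGF list and the heat shock list and near it in the NRF2 list. It was above the background in the iron list and the proteasome list. In VEGF, hypoxia and angiogenesis, 8 of 31 tested members rose, 3 fell and 20 did not pass (median log2 change 0.54). The endothelin receptor Ednrb, the prostacyclin synthase Ptgis and the VEGF receptor Flt4 rose by log2 1.95, 1.53 and 1.25 (adjusted p = 0.000253, 0.000449 and 0.000983). Angpt1, a ligand that steadies vessels, averaged 9.27 ± 7.31 CPM in SU_HX hearts and 45.9 ± 6.91 CPM in CTRL hearts (log2 -2.31, adjusted p = 0.00384), and Egln1, an oxygen sensor, fell (log2 -1.07, adjusted p = 0.00346). The rises numbered 5 without CTRL library 4. In NRF2, glutathione and peroxide enzymes, 13 of 34 tested members rose, 4 fell and 17 did not pass (median log2 change 0.41). Hmox1, heme oxygenase, averaged 70.1 ± 24.4 CPM in SU_HX hearts and 9.48 ± 3.74 CPM in CTRL hearts (log2 2.88, adjusted p = 0.000427), and the falls numbered 2 without SU_HX library 3 or CTRL library 3 or 4. In iron and heme, 4 of 18 tested members rose, 3 fell and 11 did not pass (median log2 change -0.33). Ceruloplasmin, Cp, rose (log2 2.06, adjusted p = 0.00105), and Hfe2, hemojuvelin of iron sensing, fell (log2 -2.33, adjusted p = 0.0129); the falls numbered 7 without SU_HX library 2. In heat shock and endoplasmic reticulum stress, 5 of 29 tested members rose, 2 fell and 22 did not pass (median log2 change 0.22), and the rises numbered 2 without CTRL library 2, 3 without CTRL library 1, 3 or 4 and 13 without SU_HX library 1. The falls of heat shock genes numbered 1 without SU_HX library 3 or CTRL library 1, 2 or 3. In the proteasome, atrophy ligase and FOXO list, 5 of 29 tested members fell and 24 did not pass (median log2 change -0.41). The muscle ubiquitin ligase Trim63 fell (log2 -0.90, adjusted p = 0.0114), and the falls numbered 1 without CTRL library 2, 2 without SU_HX library 3 or CTRL library 3 or 4, 3 without CTRL library 1, 9 without SU_HX library 1 and 11 without SU_HX library 2.

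Immune genes of the phagocyte branch rose. Of the 24 complement and phagocyte receptor genes found in the table, 21 passed the filter, and 21 of those rose (median 1.85). C5ar1, a complement receptor, averaged 14.4 ± 1.26 CPM in SU_HX hearts and 4.39 ± 0.862 CPM in CTRL hearts (log2 1.71, adjusted p = 0.000465). In lysosome and cathepsins, 12 of 25 tested members rose, 1 fell and 12 did not pass (median log2 change 0.56), and the fall numbered 0 without SU_HX library 4 or any 1 CTRL library and 2 without SU_HX library 1. Gpnmb, a glycoprotein of lipid-laden macrophages, had 67.7, 62.1, 131 and 78.4 CPM in SU_HX hearts, against 8.78, 7.93, 6.95 and 7.98 CPM in CTRL hearts (log2 3.42, SE 0.26, adjusted p = 9e-05), highest in SU_HX library 3. In chemokines and cytokines, 13 of 22 tested members rose and 9 did not pass (median log2 change 1.27). Cxcl16, Csf1 and Osmr, a chemokine, the macrophage growth factor and the oncostatin M receptor, rose by log2 2.19, 1.26 and 1.80 (adjusted p = 0.000753, 0.000828 and 0.000917). In interferon and antigen presentation, 11 of 31 tested members rose, 1 fell and 19 did not pass (median log2 change 0.53). The class II genes RT1-Ba and RT1-Da rose by log2 1.73 and 1.92 (adjusted p = 0.0022 and 0.0023), and the rises numbered 5 without CTRL library 3, 6 without SU_HX library 3 or CTRL library 2 and 7 without CTRL library 1. The fall numbered 0 without CTRL library 2 or 4 and 2 without CTRL library 1.

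Genes of rapid response, growth, daily rhythm and protein synthesis followed. Among immediate early genes, 6 of 24 tested members rose and 18 did not pass (median log2 change 0.36). Ier3, Myc and Fosl2 rose by log2 1.21, 1.79 and 1.24 (adjusted p = 0.0014, 0.00188 and 0.00319). The list's mean stood at 1.20, -0.21, 0.08 and 0.25 log2 from CTRL in SU_HX libraries 1 to 4, with library 1 well above the other 3, and 4 members fell without SU_HX library 1. Among p53 targets, cell cycle inhibitors and cell cycle genes, 4 of 27 tested members rose, 1 fell and 22 did not pass (median log2 change 0.29). The share that rose was near the background of 14.0%, and the share that fell was below that of 12.4%. Sesn1, a stress-induced inhibitor of mTOR, fell (log2 -1.56, adjusted p = 0.000298), and the rises numbered 1 without CTRL library 1 and 2 without CTRL library 2, 3 or 4. The fall numbered 2 without SU_HX library 1. The 17 circadian clock genes tested gave 0 calls by edgeR, with 4 at an unadjusted p under 0.05, and 0 by limma-voom; DESeq2 called 3 lower, and edgeR called 3 without SU_HX library 2 and 6 without SU_HX library 1. Among cytosolic ribosomal proteins, 1 of 36 tested members rose, 1 fell and 34 did not pass (median log2 change 0.30). Rpl3 averaged 289 ± 61.0 CPM in SU_HX hearts and 96.7 ± 7.41 CPM in CTRL hearts (log2 1.58, adjusted p = 0.000533), and Rpl3l, its paralogue of striated muscle, averaged 29.6 ± 20.9 CPM in SU_HX hearts and 237 ± 6.38 CPM in CTRL hearts (log2 -2.99, adjusted p = 0.00104). The rises of ribosomal protein genes numbered 19 without SU_HX library 1. Of the 8 aryl hydrocarbon receptor targets tested, 4 rose. Besides Cyp1a1 and Cyp1b1 they were Ahrr, the receptor's repressor (log2 5.19, adjusted p = 0.00166), and Nqo1, a quinone reductase (log2 0.73, adjusted p = 0.0235; not called in 4 of the alternative settings, among them without SU_HX library 4 or CTRL library 1 or 4; highest adjusted p 0.0828).

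**Figure D3:**
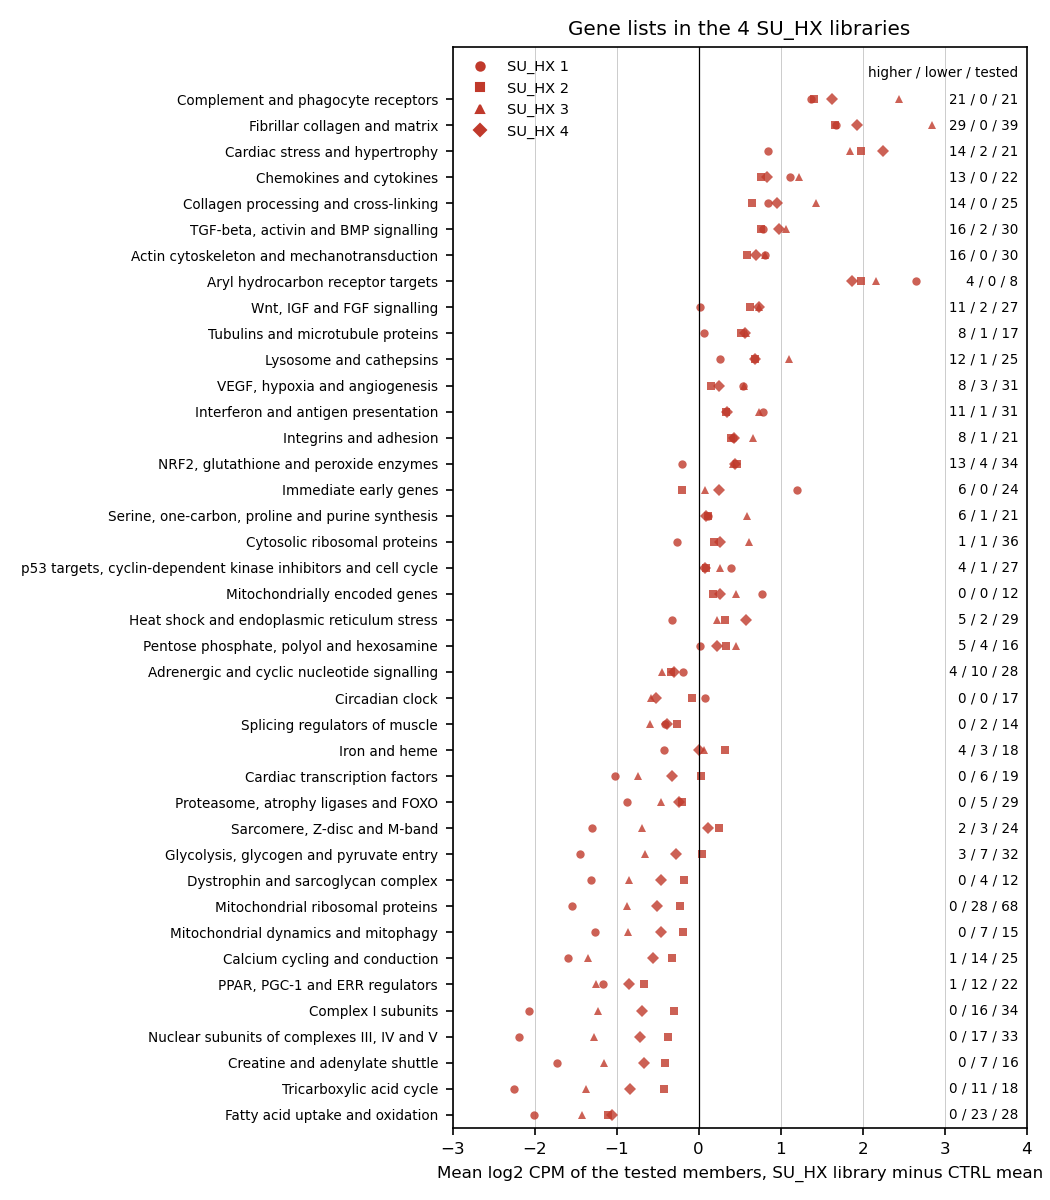
Mean log2 CPM of the tested members of 40 pathway lists in each SU_HX library (marker shapes for replicates 1 to 4) minus the CTRL mean, sorted by the median change; numbers at the right give members called higher, called lower and tested. Complement, fibrillar matrix and cardiac stress lists lie right of 0 in all 4 libraries, and the lists of fuel oxidation lie left of 0 in all 4, with library 1 lowest.

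Markers of several other cell types rose, against a background of 14.0% of all tested genes called higher. The share of vascular endothelial markers called higher was below that background in the main fit. The 12 fibroblast markers found summed to 4655 to 10749 CPM in SU_HX hearts and 3518 to 4493 CPM in CTRL hearts, and 7 of 12 tested members rose and 5 did not pass (median log2 change 1.23). The 15 macrophage and monocyte markers found summed to 602 to 1321 CPM in SU_HX hearts and 187 to 264 CPM in CTRL hearts; 13 passed the filter and rose (median 1.94). The 10 Schwann cell and nerve markers summed to 201 to 582 CPM in SU_HX hearts and 57.1 to 73.8 CPM in CTRL hearts; 5 passed the filter and 3 rose, Ncam1 and Cnp among them. Ncam1, a neural adhesion molecule that muscle can also make, had 115, 384, 345 and 457 CPM in SU_HX hearts, against 20.2, 17.5, 15.2 and 17.8 CPM in CTRL hearts (log2 4.20, SE 0.40, adjusted p = 0.000203). The 14 smooth muscle and pericyte markers summed to 3606 to 5399.6 CPM in SU_HX hearts and 3219 to 3651 CPM in CTRL hearts. These sums overlapped between the groups, and 4 of 14 members rose, among them Pdgfrb and Mcam (log2 1.13 and 1.502, adjusted p = 0.00411 and 0.00433). Vascular endothelial markers did so in 1 of 12 tested, Vwf (log2 0.93, adjusted p = 0.0277; not called in 5 of the alternative settings, among them without CTRL library 1, 2 or 3; highest adjusted p 0.101), and in 4 without SU_HX library 2; Cldn5 was at 0 in all 8 libraries, and the list's mean was 1.53, 0.02, 0.32 and 0.13 log2 from CTRL in SU_HX libraries 1 to 4. Of 10 heart muscle markers tested, Myh7 rose, Myh6, Tnni3 and Pln fell and 6 did not pass (median log2 change -0.58). The list's mean was -1.59, -0.31, -1.17 and -0.36 log2 from CTRL in SU_HX libraries 1 to 4, lowest in library 1. Their part in the changes of the pathway lists was not tested.

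Markers of blood rose, as did both lung markers that passed the filter. The 4 erythroid markers found summed to 1035 to 1882 CPM in SU_HX hearts and 59.2 to 401 CPM in CTRL hearts, and 3 passed the filter and rose, Slc4a1, Hbb and Alas2 (log2 3.10, 2.96 and 2.57, adjusted p = 0.00229, 0.00453 and 0.00232). The 7 lung epithelial markers summed to 15.8 to 65.3 CPM in SU_HX hearts and 2.53 to 5.09 CPM in CTRL hearts. Of these, Scgb1a1, a secretory protein of airway cells, had 8.52, 4.95, 23.4 and 4.24 CPM in SU_HX hearts, against 0.219, 0.377, 0 and 0.186 CPM in CTRL hearts (log2 5.51, SE 0.83, adjusted p = 0.00161), and Sftpc, a surfactant protein, 13.2, 6.19, 17.4 and 2.59 CPM in SU_HX hearts, against 0, 1.13, 0 and 0.928 CPM in CTRL hearts (log2 4.12, SE 0.81, adjusted p = 0.00543). Levels were low, and SU_HX library 3 was the highest in both; lung markers called higher numbered 4 without CTRL library 1, 3 or 4. Among the 10 atrial markers tested, 2 rose (Nppa and Myl4) and 2 fell (Kcnj3 and Stard10), and the rises numbered 4 without SU_HX library 1. The remaining sets gave few calls. Of 4 tested T, B and NK cell markers, Cd4 rose and Klrd1 and Nkg7 fell, and the falls numbered 0 without CTRL library 2 and 1 without SU_HX library 2 or 4 or CTRL library 4. Of 2 skeletal muscle markers tested, Ckm fell and Tnnt3 rose, Tnnt3 not without CTRL library 1 or 2. Of 3 epicardial markers tested Aldh1a2 rose, and of 7 lymphatic markers tested Flt4 rose and Prox1 fell; neither Aldh1a2 nor Prox1 was called without SU_HX library 3 or CTRL library 1 or 3, Aldh1a2 also not without CTRL library 4 and Prox1 also not without CTRL library 2. The 1 mast cell or neutrophil marker and the 1 adipocyte marker tested gave 0 calls by edgeR, DESeq2 or limma-voom and 0 with an unadjusted p under 0.05, and Mpo, Cidec and Retn were at 0 in all 8 libraries. Whether these markers bear on the gene changes above was not tested.

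Intron reads gave a second view of the same hearts. Of 11781 genes tested on intron reads, 2409 were called (20.4%), of which 1041 rose (8.84%) and 1368 fell (11.6%). The groups did not overlap in 3010 genes (25.5%). Among 10335 genes tested in both layers, 2754 were called in expression counts and 2120 in intron reads. They shared 1355, which is 49.2% of the expression calls and 63.9% of the intron calls, and 1350 of the shared calls had the same direction. Of the expression calls, 2577 (93.6%) had an intron change of the same sign. Across these genes, which share libraries and are not independent, the changes in both layers had a Pearson r of 0.82 and a Spearman rho of 0.73. Genes called higher in expression counts had a median of 1.01 in those counts and 0.53 in intron reads, and genes called lower -1.05 and -0.68. These genes were picked by their counts, which favours the larger change there. The medians are therefore no test of which layer changed more.

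Of the 8 largest intron rises 6 were among the 15 largest rises in counts, and of the 8 largest intron falls 4 were among the 15 largest falls. Intron reads of Nppa were 12.6, 46.2, 27.3 and 38.0 CPM in SU_HX hearts, against 0.191, 0.475, 0.184 and 0.151 CPM in CTRL hearts (log2 6.81, SE 0.58, adjusted p = 0.000122). Those of Thbs4 were 8.63, 41.7, 11.4 and 25.4 CPM in SU_HX hearts, against 0, 0.158, 0.368 and 0 CPM in CTRL hearts (adjusted p = 0.000563), and those of Fgf23 9.11, 9.53, 6.60 and 16.8 CPM in SU_HX hearts, against 0, 0, 0 and 0.151 CPM in CTRL hearts (adjusted p = 0.000122). CTRL libraries held 3 intron reads of Thbs4 and 1 of Fgf23 in all, too few for a fold. Cyp1b1, Postn, Ltbp2, Ahrr and Olr1 rose by 5.06, 5.05, 4.87, 4.82 and 4.29 log2 in intron reads. Among the falls, intron reads of Gabrb2, a GABA receptor subunit, were 0.959, 2.43, 0.892 and 0.430 CPM in SU_HX hearts, against 81.1, 40.8, 24.1 and 34.1 CPM in CTRL hearts (log2 -5.23, SE 0.51, adjusted p = 0.000216). Fndc7 and Myo3b, a fibronectin domain protein and a class III myosin, had log2 changes of -4.88 and -4.66 in intron reads, and Lsamp and Dcdc5 of -3.98 and -3.94. Myh6 intron reads were 249, 302, 40.1 and 126 CPM in SU_HX hearts, against 2167, 1711, 1809 and 2614 CPM in CTRL hearts (log2 -3.53, SE 0.53, adjusted p = 0.00163), a fall of the size of that in its counts.

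**Figure D4:**
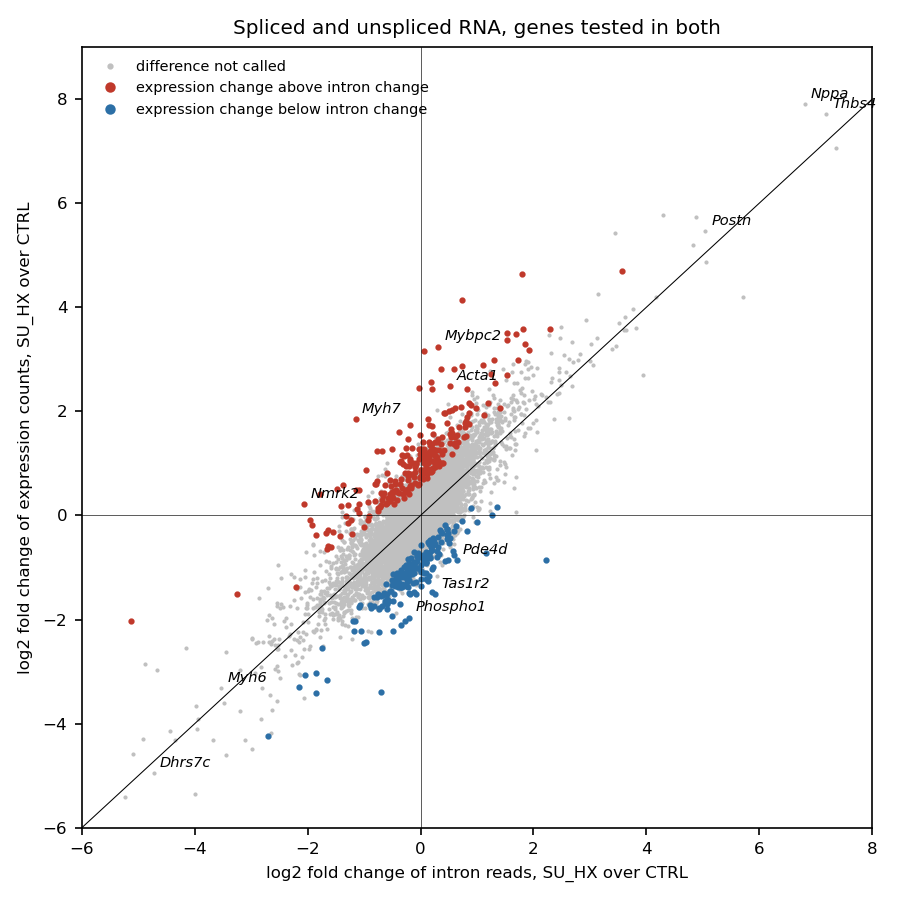
Log2 fold change of expression counts (vertical) against that of intron reads (horizontal), SU_HX over CTRL, for 10335 genes tested in both; the diagonal marks equal change, and red and blue points are the 245 and 185 genes whose difference between the layers was called. Nppa, Thbs4, Postn and Myh6 lie near the diagonal, and Myh7 lies in the upper left part, with counts up and intron reads down.

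The change in counts and the change in intron reads were then set against each other within each library. Of 10335 genes tested, 430 differed between the layers (4.16%): the count change exceeded the intron change in 245 (2.37%) and fell short of it in 185 (1.79%). The number was sensitive to single libraries. It was 147, 180, 172 and 116 without CTRL library 1, 2, 3 or 4, 139 and 264 without SU_HX library 3 or 4, and 662 and 1006 without SU_HX library 1 or 2. The genes named next were called under every alternative unless stated. Of the 430, 238 were called in expression counts alone, 43 in intron reads alone, 88 in both and 61 in neither. Another gene of the table overlaps 101 of the 430 and 2191 of all 10335 tested, which are similar shares.

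Among genes with an official symbol, Myh7 had the smallest p of the difference. Its counts rose 3.61-fold, whereas its intron reads were 462, 469, 530 and 580 CPM in SU_HX hearts, against 1086, 963, 1123 and 1357 CPM in CTRL hearts (log2 -1.15, SE 0.15, adjusted p = 0.00081). The intron values of the groups did not overlap, and counts and intron reads moved in opposite directions (difference 2.97, SE 0.32, adjusted p = 0.000842). The near-identical Myh6 fell in both layers. An unnamed gene entry (chromosome 15, 33632416 to 33637928) overlaps the end of Myh7 that lies nearest to Myh6. Its intron reads were 1.80, 10.5, 5.89 and 6.87 CPM in SU_HX hearts, against 137, 103, 111 and 137 CPM in CTRL hearts (log2 -4.33, SE 0.38, adjusted p = 0.000131), lower in every SU_HX library than in any CTRL library; it was chosen after its values were seen. The files do not state that reads were counted by strand, so reads of Myh7 and of an antisense RNA over it cannot be told apart. The part of this entry in the fall of Myh7 intron reads was not tested.

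Other genes also had a count change above the intron change. Mybpc2, the fast skeletal form of myosin-binding protein C, averaged 22.6 ± 8.74 CPM in SU_HX hearts and 2.37 ± 0.892 CPM in CTRL hearts, while its intron reads averaged 8.61 ± 1.62 CPM in SU_HX hearts and 6.83 ± 1.93 CPM in CTRL hearts (difference 2.87, SE 0.37, adjusted p = 0.00161). Dusp4, a phosphatase that switches off MAP kinases, averaged 57.3 ± 34.3 CPM in SU_HX hearts and 7.81 ± 1.19 CPM in CTRL hearts, with intron reads at 9.69 ± 4.28 CPM in SU_HX hearts and 5.69 ± 1.30 CPM in CTRL hearts (difference 1.99, SE 0.26, adjusted p = 0.00161). Loxl2 and Sbsn, a matrix oxidase and a protein of the skin surface, had differences of 1.52 and 3.22 (adjusted p = 0.00182 and 0.00243). In Nmrk2 and Egflam, a kinase of NAD synthesis in muscle and a matrix protein, counts did not pass the test (log2 0.21 and -0.18, adjusted p = 0.727 and 0.734). Intron reads of Nmrk2 were 7.19, 15.7, 11.1 and 20.4 CPM in SU_HX hearts, against 54.7, 41.3, 59.2 and 67.9 CPM in CTRL hearts (log2 -2.06, SE 0.29, adjusted p = 0.00113), and those of Egflam 81.2, 45.2, 37.8 and 37.6 CPM in SU_HX hearts, against 177, 176, 207 and 209 CPM in CTRL hearts (log2 -1.92, SE 0.24, adjusted p = 0.000706). In both genes the intron values of the groups did not overlap.

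The opposite pattern, a count change below the intron change, had its smallest p among genes with an official symbol in Pde4d (ENSRNOG00000042536, 24 exons, at 40554146 to 41464264 of chromosome 2), a phosphodiesterase that breaks down cyclic AMP in heart muscle. Its counts were 22.4, 34.1, 24.7 and 24.3 CPM in SU_HX hearts, against 53.3, 47.6, 50.2 and 40.1 CPM in CTRL hearts (log2 -0.85, SE 0.17, adjusted p = 0.00583), and its intron reads 517, 697, 492 and 686 CPM in SU_HX hearts, against 532, 365, 323 and 318 CPM in CTRL hearts (log2 0.64, SE 0.20, adjusted p = 0.0475; difference -1.52, SE 0.20, adjusted p = 0.00161). The intron call of Pde4d was lost in several alternatives, among them without SU_HX library 2 or 4 or CTRL library 2, 3 or 4 (adjusted p up to 0.143), and its difference was called in all. The intron values of the groups overlapped and the count values did not. Tas1r2, a sweet taste receptor, Phospho1, a phosphatase of mineralisation, and Ldhd, a D-lactate dehydrogenase, had log2 changes of -1.50, -1.96 and -1.94 in counts, while their intron reads did not pass the test (log2 0.26, -0.20 and -0.50). Gipc2, Zfp689 and mrpl24 likewise had log2 count changes of -1.48, -0.85 and -0.86 and intron changes of 0.21, 0.07 and 0.48 (the difference of Gipc2 was not called in 1 alternative, adjusted p up to 0.0574). Ddx49, an RNA helicase, did not pass the test in counts (log2 0.01, adjusted p = 0.978) and rose by log2 1.27 in intron reads (adjusted p = 0.0026). Besides Myh7 and Pde4d, the genes called in opposite directions were Mib1, Ppib and RGD1566239. Mib1, a ubiquitin ligase of Notch signalling, and Ppib, a collagen chaperone, had log2 changes of 0.49 and 0.68 in counts and -0.44 and -0.54 in intron reads. The calls of both in either layer were lost without several single libraries, CTRL library 1 and 3 among them (adjusted p up to 0.121 for Mib1 and 0.0703 for Ppib in counts, and 0.528 and 0.258 in intron reads). RGD1566239, an entry whose number is no official symbol by the naming rule, had a smaller p of the difference than Pde4d (difference -3.07, SE 0.36, adjusted p = 0.000842). It had -0.85 in counts (not called in 3 of the alternative settings, without CTRL library 2, 3 or 4; highest adjusted p 0.0636) and 2.21 in intron reads. Pde4d, Tas1r2, Ldhd, Gipc2, Zfp689, mrpl24, Mib1, Loxl2 and Egflam each overlap another gene entry, so without strand their reads in either layer are uncertain.

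**Figure D5:**
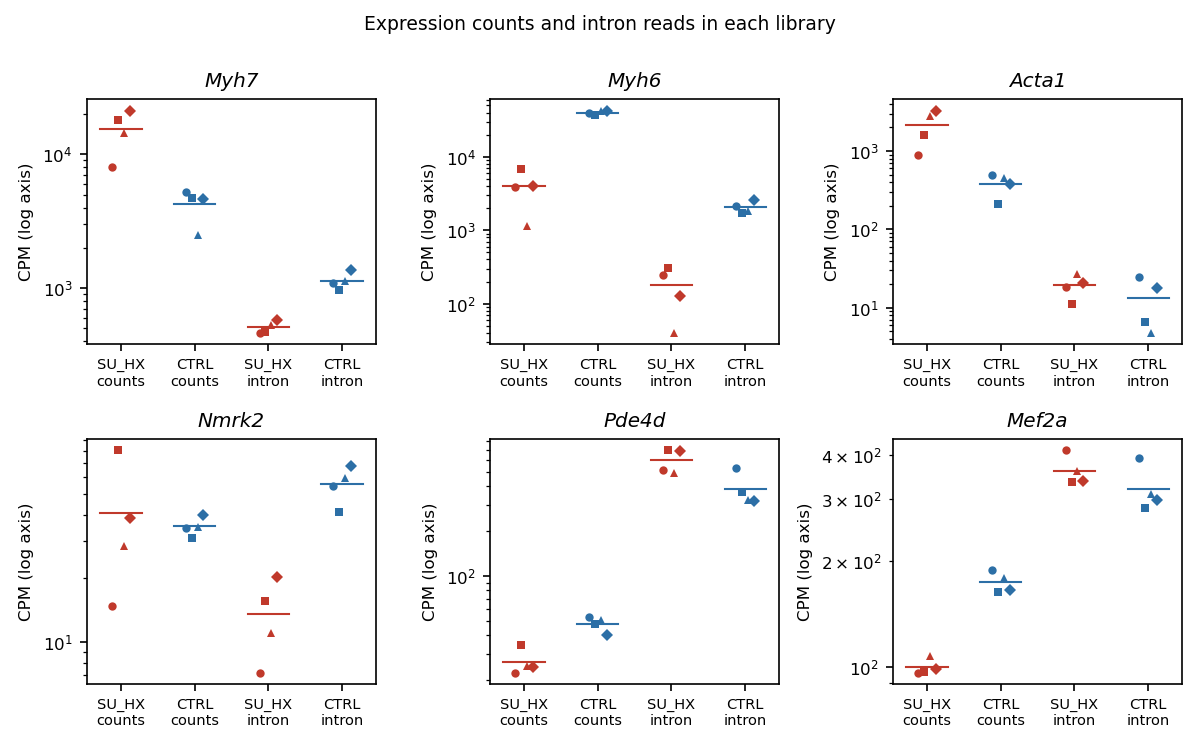
CPM of expression counts and of intron reads (log axes) for 6 genes, 1 point per library with a bar at the mean of n = 4, SU_HX in red left of CTRL in blue. Myh6 falls in both layers, Myh7 rises in counts and falls in intron reads, Nmrk2 falls in intron reads, and Pde4d and Mef2a fall in counts.

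The layers also parted by gene group. As background, over all genes tested the difference was called with counts above intron reads in 2.37% and below in 1.79%. Intron reads were called higher in 8.84% and lower in 11.6%. Among 16 tubulin and microtubule genes tested on intron reads 0 rose by edgeR or limma-voom and 1 by DESeq2, with 5 at an unadjusted p under 0.05, although 8 of 17 rose in counts. The difference was called in 3 of 16, Tuba1a among them, all with counts above intron reads, and in 0 without SU_HX library 3 or 4 or CTRL library 1, 2 or 4 and 1 without CTRL library 3. In 7 of 26 actin cytoskeleton genes counts exceeded intron reads, Zyx, Tpm3, Tagln2 and Tpm4 among them; this held in 2 without CTRL library 4, 3 without SU_HX library 3, 4 without SU_HX library 4 or CTRL library 1, 2 or 3 and 11 without SU_HX library 1. In fatty acid uptake and oxidation, 20 of 27 genes fell in intron reads (median -0.76, against -1.31 in counts). In 8 of 27 the counts fell further than the intron reads, Hadh, Acaa2 and Decr1 among them, and in 1 without SU_HX library 3 or CTRL library 1 or 4, 2 without CTRL library 2 or 3, 4 without SU_HX library 4 and 16 without SU_HX library 2. Mitochondrial ribosomal proteins fell in 28 of 68 by counts and in 3 of 55 by intron reads, the latter below the background of 11.6% (medians -0.69 and -0.19). Their difference was called in 4 of 55, and in 0 without CTRL library 1 or 3, 1 without SU_HX library 3 or CTRL library 2, 2 without CTRL library 4 and 14 without SU_HX library 2.

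Medians of some other groups stood closer together. Regulators of fuel genes had a median of -0.84 in counts and -0.89 in intron reads, with 9 of 21 falling in intron reads. Calcium and conduction genes had medians of -0.81 and -0.74, with 10 of 23 falling in intron reads. Fibrillar matrix genes did not: their medians were 1.5005 and 0.82, with 17 of 33 called higher in intron reads. Their difference had a median of 0.67. It was called in 5 of 33, all with counts above intron reads, and in 1 to 14 with 1 library left out. The median over all genes tested was 0.07 in counts, 0.02 in intron reads and 0.04 for the difference. These counts share libraries and were not tested against other genes.

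Single genes also parted between the layers. Mef2a had 96.2, 96.8, 107 and 98.2 CPM in SU_HX hearts, against 188, 163, 179 and 165 CPM in CTRL hearts in counts (log2 -0.80, SE 0.14, adjusted p = 0.00279). Its intron reads were 412, 335, 360 and 336 CPM in SU_HX hearts, against 391, 282, 309 and 297 CPM in CTRL hearts, with overlapping groups (adjusted p = 0.412; difference -0.98, SE 0.17, adjusted p = 0.00577). Icam1, an adhesion molecule of inflamed vessels, averaged 19.7 ± 1.62 CPM in SU_HX hearts and 5.84 ± 2.43 CPM in CTRL hearts in counts (log2 1.75, adjusted p = 0.00168), while its intron reads averaged 3.60 ± 1.38 CPM in SU_HX hearts and 4.21 ± 1.20 CPM in CTRL hearts (difference 1.98, SE 0.31, adjusted p = 0.00403). Acta1 intron reads averaged 19.2 ± 6.49 CPM in SU_HX hearts and 13.4 ± 9.43 CPM in CTRL hearts, with CTRL values from 4.78 to 24.7 CPM (difference 1.72, adjusted p = 0.0367; not called in 6 of the alternatives, adjusted p up to 0.215). Circadian genes fell in 5 of 18 by intron reads, and in 1 without SU_HX library 4 or CTRL library 4, 2 without CTRL library 2 or 3 and 3 without SU_HX library 3 or CTRL library 1; their difference between the layers was called in 0 of 17 by edgeR, with 4 at an unadjusted p under 0.05.

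The SU_HX hearts were less alike than the CTRL hearts. Over 8650 genes of at least 10 CPM, the median SD of log2 CPM was 0.353 among SU_HX libraries and 0.135 among CTRL libraries, and it was larger in SU_HX for 87.5% of the genes. Among 2451 called genes of that level, SU_HX library 1 was the lowest of its group in 1065 and library 2 the highest in 964, counts described without a test. Genes called lower stood at -1.42, -0.65, -1.28 and -0.94 log2 from CTRL in the median of SU_HX libraries 1 to 4, and genes called higher at 1.04, 0.73, 1.26 and 0.94. Library 3 had the largest rises and library 1 the deepest falls, and library 2 was closest to CTRL on both sides. Complex I stood at -2.07, -0.30, -1.22 and -0.69 and fatty acid oxidation at -2.01, -1.11, -1.42 and -1.05 in libraries 1 to 4, fibrillar matrix at 1.67, 1.66, 2.85 and 1.93 and cardiac stress at 0.84, 1.98, 1.85 and 2.25. The order of the libraries differed between these groups: library 1 was lowest for fuel genes and for stress genes, and library 3 was highest for matrix.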

How the data were processed

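Per the labels' protocols, total RNA of rat hearts was extracted with ISOGEN plus and sequenced on a NextSeq 500. Aligner, build, strand setting: not given in the sources used here. Per gene, the deposited table holds counts for each library, per the file headers: expression values, unique exon and exon junction reads, and intron reads. The authors' fold change and p columns were not used. Members and gene lists were chosen with earlier results of these data known.

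Expression counts and unique intron reads were fitted separately with edgeR 4.0.16 (R 4.3.3) on the 8 libraries: filterByExpr, TMM scaling and the quasi-likelihood test, with Benjamini-Hochberg adjustment and a threshold of 0.05. A paired-layer fit, with library as a block, tested the count change minus the intron change. CPM use the TMM totals, and gene positions are those of the table. Scripts were tested on simulated data. Depth was 4036489 to 5797763 counts per library.

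No replicate pair agreed within sampling noise (chi-square per degree of freedom at least 3.31), so none was treated as a repeat deposit of another; this does not show that they came from separate animals. Replicate numbers did not pair the samples. Alternatives were RLE factors, other filters, a replicate block, DESeq2 1.42.0, limma-voom (limma 3.58.1), all 12 libraries, unique exon reads, a 2-fold minimum and leaving out each library; junction reads and genes that overlap no other were added after seeing the data. Named genes are the 15 largest rises and falls of at least 10 CPM whose groups did not overlap, the 10 largest CPM gains and losses, the 8 largest intron changes of at least 5 CPM each way, the 8 smallest p each way for the difference, up to 3 called members per list and direction (all where at most 5 passed), and 15 preset genes. The largest-change and difference rules took genes with an official symbol (no LOC, RGD, AABR, AC or Ensembl numbers and no copy number). Of these 239 genes 180 are named, some are not reported here, and 11 others were chosen after their values were seen. Promoter sequences are from RefSeq (GRCr8), which held 9293 of the 11880 genes tested.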

Additional observations from a re-analysis of the deposited data

Results flagged for a closer look

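In 23 of 446 groups of 4 libraries, 1 library stood apart: its gap to the nearest of the other 3, as a share of the group's whole range in log2 CPM, passed Dixon's critical value for 4 samples. Chance flags about 1 in 20 groups, which is near the share found here.

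Among SU_HX libraries, counts had library 1 alone at the low end for Tmem119 (gap 0.847 of the range) and library 3 alone at the high end for Ppib (0.867) and Ugdh (0.924). In intron reads of SU_HX libraries, library 2 stood high for Dcdc5 (0.883), library 1 high for Gipc2 (0.932) and library 3 low for Phospho1 (0.952).

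Among CTRL libraries, library 3 stood high in counts for Atp2a2 (0.856), Gfpt2 (0.952), Pfkm (0.8293) and Rxrg (0.832). It stood low for Myh7 (0.831), Cd4 (0.893) and RT1-Da (0.909), and high in intron reads for Phospho1 (0.990). CTRL library 4 stood low for Hadh (0.956) and Trdn (0.843) and high for Pfkp (0.831). CTRL library 2 stood high for Myl4 (0.863) and Ptgis (0.854) and low for Pdlim5 (0.903). CTRL library 1 stood high for Zfp689 (0.846) and Zyx (0.846) and low for Itga7 (0.834).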

How the results depend on the processing

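Of 186 named genes called in expression counts, 157 were called under every alternative and 29 were lost under at least 1, and no called gene changed direction. Over all layers, 125 calls of named genes were lost under single alternatives, among them 22 and 19 without CTRL library 2 or 1 and 18 without SU_HX library 3. Expression calls (3133) ranged from 2484 with the replicate block to 3777 with all 12 libraries, were 1717 with a 2-fold minimum, and ranged from 2040 to 4341 with 1 library left out. Intron calls (2409) were 1315 when intron reads were scaled by the totals of the expression counts, which moved the median of all genes from 0.02 to 0.14, and ranged from 1749 to 3143 with 1 library left out. Calls of the difference between the layers (430) were 736 with no filter, 322 with exon junction reads, 309 among genes that overlap no other gene, and 116 to 1006 with 1 library left out. The share of these with counts above intron reads was 57.0%, and it was 46.2% without SU_HX library 2 and 68.9 to 72.7% without SU_HX library 3 or CTRL library 2 or 3; the cause was not tested.

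The replicate block gave 2484 expression, 1962 intron and 345 difference calls, and 11 calls of named genes over all layers were lost with it. Same-numbered libraries had correlations of deviations of -0.016, -0.013, -0.100 and -0.149, and none matched its own number best.

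The difference in the share of intron reads was 1.70 percentage points, -2.62 without SU_HX library 1 and up to 4.29 without another library, and that in the mitochondrial share was 3.72 points, 1.498 to 4.84 with 1 library left out; the cause was not tested. Of uncalled values, some changed sign. Ddx49 counts (log2 0.0060) were -0.018 with DESeq2, -0.020 with no filter, -0.017 with RLE factors, -0.0089 with 12 libraries and -0.055 to 0.047 with 1 library left out. Nmrk2 counts (0.21) were -0.039 with limma-voom, -0.031 with the replicate block and -0.38 to 0.49 with 1 library left out. With 1 library left out, Egflam counts (-0.18) were -0.77 to 0.015, and Phospho1 intron reads (-0.20) were -0.29 to 0.013; the cause was not tested. Depth limits calls of genes with few counts.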
